A study of Homo sapiens with 24 samples.

Results

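Small nucleolar RNAs (snoRNAs) and small Cajal body RNAs (scaRNAs) were followed in THP-1, a leukaemia cell line of monocyte type, over 6 groups of cell line and doxycycline (DOX) treatment. The members were all genes whose symbol starts with SNORD, SNORA or SCARNA and that have a probe set of their own on the array, that is, a probe set annotated to no other gene. This gave 192 genes on 198 probe sets, out of 18417 genes measured. By symbol, 115 were C/D box RNAs (SNORD), 61 were H/ACA box RNAs (SNORA) and 16 were Cajal body RNAs (SCARNA). A further 76 probe sets that carry a member's symbol beside another gene's were kept out of the comparisons.

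C/D box snoRNAs base-pair with a target RNA and, with fibrillarin, NOP56, NOP58 and SNU13, direct methylation of a ribose in it. H/ACA box snoRNAs work with dyskerin (DKC1), NHP2, NOP10 and GAR1 and direct the conversion of a uridine to pseudouridine. Their main targets are ribosomal RNAs, whereas scaRNAs gather in Cajal bodies and direct both changes in the small nuclear RNAs of the spliceosome. Most human snoRNAs and scaRNAs are not transcribed on their own but are trimmed from the introns of longer host genes, so a host's transcription rate, splicing and the guide's stability all bear on the level of the guide.

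The cells carried a lentiviral pSLIK_Neo cassette in which DOX induces a 3X FLAG-tagged coding sequence, and stable lines were selected with G418 after infection at a low copy number. The NOD1 line carried NOD1, a cytosolic receptor for bacterial peptidoglycan fragments, the NLRP4 line carried NLRP4, another receptor of the same family, and the vector line carried the empty cassette. Each line was kept at 50000 cells per well and either induced for 6 h with DOX (1 µg/ml) or left untreated, with 4 arrays in each of the 6 groups. The labels do not say that the wells of a group were separate cultures, so the p-values cover well-to-well spread alone, and this may be technical. Array numbers run on within each group in the labels, so group and array order cannot be told apart. Fewer cells that express a gene and less of its RNA per cell cannot be told apart in such wells.

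Several facts of the whole series bear on these RNAs. NOD1 averaged 12.75 ± 0.18 on the log2 scale in the DOX-treated NOD1 line and 8.74 ± 0.19 in the untreated NOD1 line (SD, n = 4 each). In the untreated vector and NLRP4 lines NOD1 averaged 8.33 ± 0.19 and 8.29 ± 0.19. NLRP4 averaged 11.93 ± 0.26 in the DOX-treated NLRP4 line and 8.09 ± 0.43 in the untreated NLRP4 line (SD, n = 4 each). In the untreated vector and NOD1 lines NLRP4 averaged 6.92 ± 0.33 and 7.03 ± 0.28. Each receptor thus averaged higher in its own line before induction too. The mean of 8 myeloid markers lay at 10.53 to 10.75 on the 8 NOD1-line arrays, 10.29 to 10.42 on the NLRP4-line arrays and 10.17 to 10.35 on the vector-line arrays. The mean of 12 markers of other cell types lay at 8.17 to 8.35 on NOD1-line arrays, 8.58 to 8.83 on NLRP4-line arrays and 8.59 to 8.75 on vector-line arrays. NCAM1, one of them, averaged 7.95 in the untreated NOD1 line, 10.19 in the untreated NLRP4 line and 10.45 in the untreated vector line. EPCAM, another, averaged 7.12, 8.72 and 9.01 in the same order. The lower mean came largely from NCAM1 and EPCAM, at -2.50 and -1.89 against the untreated vector line. Over the 12 markers the median log2 difference there was -0.10 and the highest 0.19. No marker was at 0 on this scale, and the part of these markers in the results below was not tested. The deposited array medians, the measure of array brightness used below, ran from 8.06 to 8.85.

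Total RNA was taken on silica columns, which recover short RNAs poorly, and the labels name a labelling kit that primes from poly(A) tails, which mature snoRNAs lack. Whether a probe set read the mature guide, its precursor or the intron of the host was not tested. Sequences of the guides themselves were not used here. SCARNA16, a Cajal body RNA, is the single member that overlaps a microRNA hairpin in the reference annotation, and the hairpin is shown because it is the one stretch of member sequence at hand. The hairpin of MIR6516 (81 bases) shares 77 bases with SCARNA16 (187 bases) on chromosome 17, chr17:77089417-77089497, plus strand, GRCh38.p14. The capitals mark the 2 mature arms.
MIR6516 hairpin: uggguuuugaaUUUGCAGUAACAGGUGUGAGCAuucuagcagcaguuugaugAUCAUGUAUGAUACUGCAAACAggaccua
SCARNA16 read 9.42, 9.47, 10.16 and 9.14 in the DOX-treated NOD1 line, against 9.95, 10.08, 10.02 and 9.73 in the DOX-treated NLRP4 line. The groups overlapped through 1 array, and the log2 difference of -0.40 did not pass the test (SE 0.162, limma adjusted p = 0.0782).

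Many of these RNAs gave a dim signal. The mean over the 24 arrays ran from 4.91 for SNORD115-3 to 14.62 for SCARNA9, which directs methylation of U2 small nuclear RNA. Signals of different probe sets depend on their probes and are not amounts of RNA, so the values here say where a probe set lay, not which RNA was more abundant. Of the 192 members 82 (42.7%) lay in the dimmest 25% of all genes, below 7.80, among them 58 of 115 C/D box, 18 of 61 H/ACA box and 6 of 16 Cajal body RNAs. No background level was used here to tell signal from noise, and differences of such dim members may be understated.

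**Figure D1:**
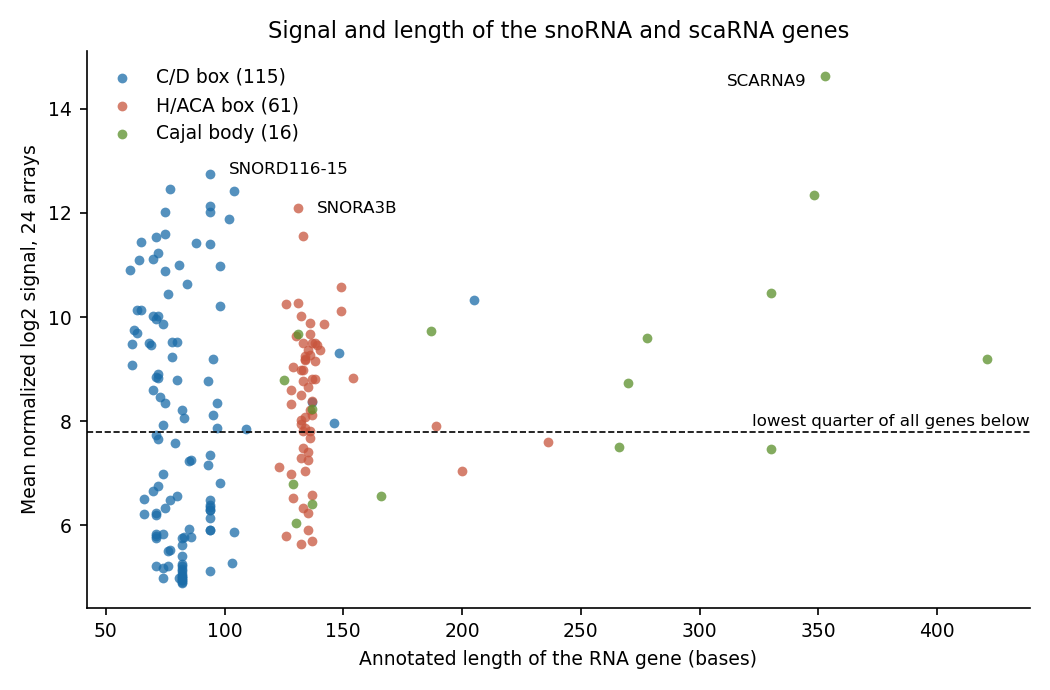
Mean normalized log2 signal over 24 arrays (vertical axis) against the annotated length of the RNA in bases (horizontal axis), 1 point a gene, coloured by class; the dashed line at 7.80 marks the dimmest 25% of all genes. C/D box RNAs (median 81 bases) spread from 4.91 to 12.74, H/ACA box RNAs (median 134 bases) from 5.65 to 12.08 and Cajal body RNAs (median 226.5 bases) from 6.05 to 14.62.

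The dim C/D box RNAs came largely from the imprinted clusters, whose snoRNAs are known mainly from brain. All 20 SNORD115 copies, which lie in the Prader-Willi region, read between 4.91 and 5.83, and the 6 SNORD113 and SNORD114 genes, from the imprinted cluster of chromosome 14, read between 5.17 and 5.83. The 20 SNORD116 copies, from the Prader-Willi region too, differed among themselves, with 14 in the dimmest 25% and SNORD116-15 at 12.74. Copies of SNORD116 are near identical, so the signal of one may hold RNA of another. The other 69 C/D box RNAs had a median of 9.08, and 18 of them lay in the dimmest 25%. Across genes, length and signal had a Pearson correlation of 0.03 over 115 C/D box RNAs, -0.07 over 61 H/ACA box RNAs and 0.58 over 16 Cajal body RNAs, as a description of probe sets that share arrays.

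The members were also noisier than other genes. The median residual SD between arrays of a group was 0.341 for members and 0.158 over all genes. Within groups, pairs of arrays had correlations of 0.926 to 0.979 over the members, against 0.982 to 0.993 over all genes. The median SE of a difference between groups of 4, from limma's moderated variances, was 0.217 for members and 0.111 over all genes.

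The medians of the 3 classes were taken on each array. After quantile normalization, the H/ACA median averaged 8.39 ± 0.116 in the DOX-treated and 8.43 ± 0.164 in the untreated NOD1 line, 8.67 ± 0.113 and 8.68 ± 0.107 in the NLRP4 line, and 8.65 ± 0.131 and 8.65 ± 0.154 in the vector line (SD, n = 4 each). The Cajal body median averaged 8.57 ± 0.142 in the DOX-treated and 8.62 ± 0.125 in the untreated NOD1 line, 8.84 ± 0.127 and 8.76 ± 0.187 in the NLRP4 line, and 8.81 ± 0.0516 and 8.68 ± 0.207 in the vector line (SD, n = 4 each). The C/D box median averaged 7.50 ± 0.0656 in the DOX-treated and 7.66 ± 0.0715 in the untreated NOD1 line, 7.75 ± 0.363 and 7.73 ± 0.134 in the NLRP4 line, and 7.77 ± 0.152 and 7.79 ± 0.129 in the vector line (SD, n = 4 each). The distance between the H/ACA and the C/D box median averaged between 0.77 and 0.95 in the 6 groups, with SDs of 0.153 to 0.314. The largest SD was that of the DOX-treated NLRP4 line, where replicate 3 stood at 1.34. Whether the distance differed between groups was not tested.

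**Figure D2:**
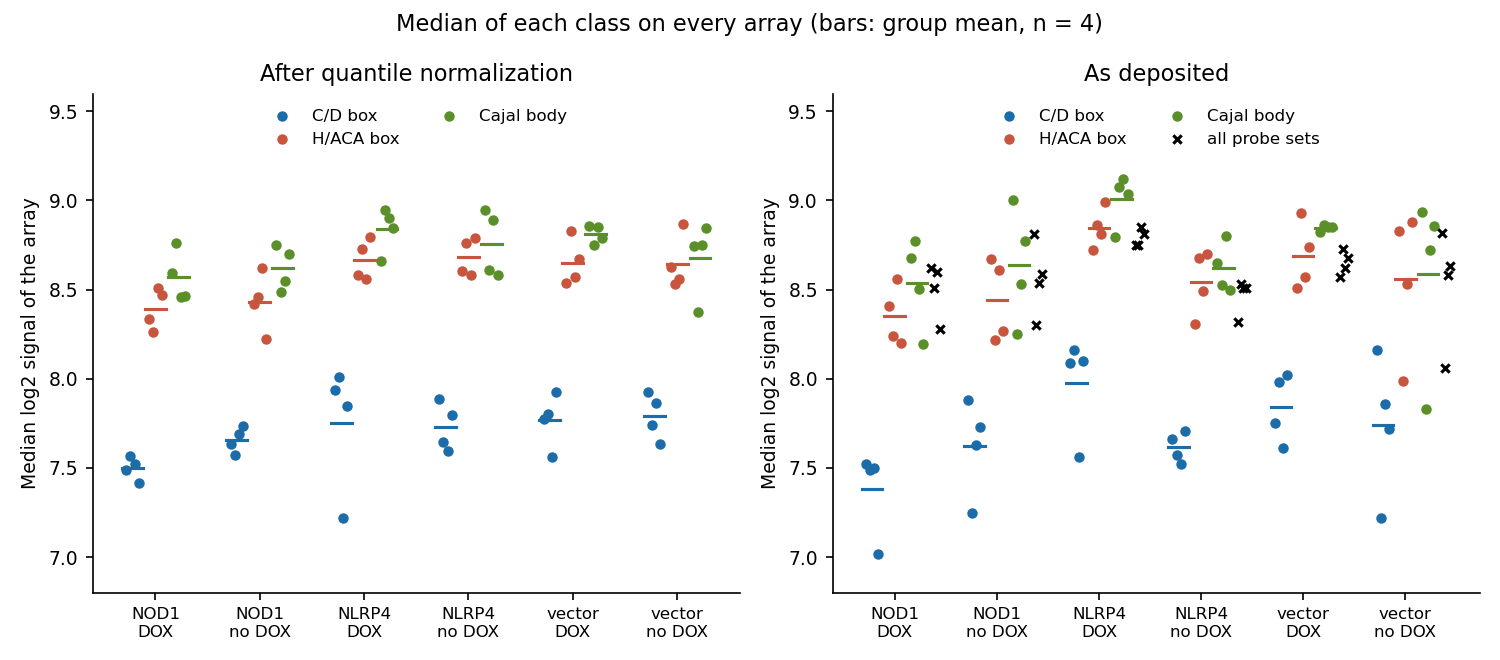
Median log2 signal of the C/D box, H/ACA box and Cajal body RNAs on each array (points, bars for group means, n = 4), after quantile normalization on the left and as deposited on the right, where crosses give the median of all probe sets on the array. On the left the H/ACA medians average 8.39 and 8.43 in the NOD1 line and 8.65 to 8.68 in the other lines. The C/D box medians there average 7.50 and 7.66 in the NOD1 line and 7.73 to 7.79 in the other lines. On the right the class medians follow the crosses only in part. Replicate 3 of the DOX-treated NLRP4 line has the highest cross, at 8.85, and a C/D box median of 7.56, the lowest of its group.

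Array brightness was checked by adding the deposited array median to the fit of the 6 groups. The slope on it was called for 1 member, SNORD114-6, at -0.62 per unit of array median (SE 0.139, limma adjusted p = 0.0333), whereas 0.977% of all genes were called. The median slope was -0.06 for C/D box, 0.15 for H/ACA box and 0.18 for Cajal body RNAs, and 0.01 over all genes. At an unadjusted p under 0.05 the slope counted for 28 of 192 members (14.6%), beside 16.8% of all genes. The members' share lay near that of all genes.

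No member was called for DOX in any line. By limma at an adjusted p under 0.05, 0 of 192 members were called in the DOX-treated against the untreated NOD1 line (0.0109% of all genes), 0 in the NLRP4 line (0.0163%) and 0 in the vector line (0%). At an unadjusted p under 0.05 there were 16, 11 and 11 members in these lines, or 8.33%, 5.73% and 5.73%, beside 5.77%, 8.05% and 3.38% of all genes. For the differences between the DOX effects of the lines, 0 members were called for NOD1 minus vector (0.00543% of all genes), 0 for NLRP4 minus vector (0.00543%) and 0 for NOD1 minus NLRP4 (0.0109%), where 10, 12 and 21 members had an unadjusted p under 0.05, or 5.21%, 6.25% and 10.9%, beside 4.05%, 4.92% and 8.01% of all genes.

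SNORD57, a C/D box guide for 18S ribosomal RNA, was among the 5 members with the lowest p for DOX in the NOD1 line. It read 9.22, 10.84, 11.21 and 11.78 in the DOX-treated NOD1 line, against 9.49, 9.34, 9.73 and 9.10 in the untreated NOD1 line (log2 difference 1.34, SE 0.368, limma adjusted p = 0.47). The first treated array lay inside the untreated range, and without it the difference was 1.86 with an adjusted p of 0.00941. SNORD58A, a guide for 28S ribosomal RNA from an intron of RPL17, was among the lowest in p in each line. It read 10.35, 10.44, 9.93 and 9.92 in the DOX-treated NOD1 line, against 9.65, 10.12, 9.45 and 9.57 in the untreated NOD1 line. In the NLRP4 line it read 10.14, 9.75, 9.72 and 10.06 with DOX, against 10.45, 10.75, 10.62 and 10.55 without. In the vector line the values were 10.34, 10.78, 10.32 and 10.26 with DOX, against 10.14, 9.77, 10.03 and 9.90 without. The groups did not overlap in the NLRP4 or the vector line, with differences of -0.67 and 0.47 that did not pass the test (limma adjusted p = 0.319 and 1). The DOX effect of the NLRP4 line minus that of the vector line was -1.14 (SE 0.211, limma adjusted p = 0.152).

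Between the NLRP4 and the vector line 0 members were called without DOX (0.0163% of all genes) and 0 with DOX (0.038%, of which 0.0271% lower), with 16 and 14 members at an unadjusted p under 0.05, or 8.33% and 7.29%, beside 4.96% and 6.11% of all genes. All calls between lines therefore came from the NOD1 line, which was set against the vector line and against the NLRP4 line, each without and with DOX.

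Without DOX, the NOD1 line differed from the vector line in 20 of 192 members, 3 higher and 17 lower, or 10.4%, beside 24.9% of all genes. The 20 comprised 7 of 115 C/D box RNAs (1 higher, 6 lower), 10 of 61 H/ACA box RNAs (2 higher, 8 lower) and 3 of 16 Cajal body RNAs (0 higher, 3 lower). Against the NLRP4 line without DOX, 20 members were called, 4 higher and 16 lower, beside 27% of all genes: 10 C/D box (2 higher, 8 lower), 7 H/ACA box (2 higher, 5 lower) and 3 Cajal body RNAs, all lower. The share called lay below that of all genes in both comparisons, and most called members were lower, whereas 13% of all genes were higher and 11.9% lower against the vector line.

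With DOX, the NOD1 line differed from the vector line in 15 members, 3 higher and 12 lower, beside 25.8% of all genes, and from the NLRP4 line in 20, 5 higher and 15 lower, beside 25.4%. Against the vector line these were 4 C/D box (1 higher, 3 lower), 9 H/ACA box (2 higher, 7 lower) and 2 Cajal body RNAs (both lower). Against the NLRP4 line they were 13 C/D box (5 higher, 8 lower), 4 H/ACA box (all lower) and 3 Cajal body RNAs (all lower). This split depends on the scaling. Against the NLRP4 line with DOX, 4 were higher and 43 lower in the values as deposited, 16 higher and 7 lower with arrays centred on their medians, and 7 higher and 10 lower after quantile normalization of all probe sets. Against the vector line with DOX, centring gave 5 higher and 8 lower and quantile normalization of all probe sets 6 higher and 9 lower.

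The share was below that of all genes without the dim members too. Of the 110 members above the dimmest 25%, 17, 16, 13 and 18 were called in the 4 comparisons of the NOD1 line (against vector and NLRP4 without DOX, then with DOX), or 15.5%, 14.5%, 11.8% and 16.4%. The shares over all genes above that limit were 31.3%, 33.6%, 32.2% and 31.5%.

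As whole classes, the H/ACA and Cajal body RNAs had median log2 differences below 0 in the NOD1 line in all 4 comparisons, and the C/D box RNAs had median differences near 0. The array medians of the classes differed from this with DOX. There the C/D box median was lower in the NOD1 line too, at 7.50 against 7.75 in the NLRP4 and 7.77 in the vector line. The H/ACA median was 8.39 against 8.67 and 8.65. The contrast between these classes thus depends on the summary used. Within a treatment, the comparisons against the vector and the NLRP4 line use the same NOD1-line arrays and are not independent. The median log2 difference of H/ACA RNAs was -0.11 against the vector and -0.13 against the NLRP4 line without DOX, and -0.15 and -0.22 with DOX, beside medians over all genes of 0.03, 0.04, 0.02 and 0.02. Cajal body RNAs had medians of -0.26, -0.18, -0.22 and -0.39 in the same order, and C/D box RNAs 0.02, -0.06, 0.03 and -0.01. Below 0 lay 68.9%, 63.9%, 75.4% and 78.7% of H/ACA RNAs, 48.7%, 58.3%, 42.6% and 50.4% of C/D box RNAs, and 43.8%, 42.9%, 45.1% and 47% of all genes. The H/ACA and Cajal body medians stayed below 0 in the values as deposited, with centred arrays and after quantile normalization of all probe sets, with the H/ACA median closest to 0 at -0.03 (against the NLRP4 line without DOX, as deposited). The C/D box medians changed sign with the scaling in 3 of the 4 comparisons. Without the dimmest 25% of genes, which hold 58 of the 115 C/D box RNAs, the C/D box medians were 0.02, -0.09, -0.01 and -0.10 and the H/ACA medians -0.11, -0.13, -0.12 and -0.26 (against vector and NLRP4 without DOX, then with DOX). In the deposited values the median of all genes itself stood at -0.21 against the NLRP4 line with DOX, where the H/ACA median was -0.43 and the C/D box median -0.27. The SD of the H/ACA median between arrays of a group was 0.132, and the class medians were not tested.

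Over the 4 comparisons 51 of 192 members were called at least once, 12 only as higher and 39 only as lower. The share of all genes called at least once was not counted, so the 51 have no background beside them. Single comparisons called 24.9% to 27% of all genes, 13% to 14.1% as higher and 11.9% to 12.8% as lower. The 39 comprised 17 C/D box, 16 H/ACA box and 6 Cajal body RNAs, and the 12 comprised 8 C/D box and 4 H/ACA box RNAs. A single comparison called 34 of them, 11 were called in 2, 5 in 3 (SCARNA7, SCARNA8, SNORA22, SNORD116-1 and SNORD63) and SNORA70G in all 4. The comparisons without and with DOX share no arrays, whereas within a treatment those against the vector and the NLRP4 line share the NOD1-line arrays. Against the vector line, 5 members were called in both (SCARNA7, SCARNA8, SNORA19, SNORA22 and SNORA70G), all lower, or 25% of those called without DOX and 33.3% of those called with DOX. The corresponding shares over all genes were 76.5% and 74%. Against the NLRP4 line 4 were called in both (SNORA70G, SNORD116-1, SNORD46 and SNORD63), 20% of each list, beside 67.2% and 71.2% over all genes. Directions were shared more widely than calls: against the vector line 18 of the 20 members called without DOX had the same sign with DOX and 15 of the 15 called with DOX had the same sign without, and against the NLRP4 line 14 of 20 and 17 of 20 did. Over all 192 members the sign was shared in 122 and 121.

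The 75 called values of these 51 members differed in how firm they were. Under the 17 or 18 alternatives for each, among them leaving out each of the 8 arrays compared, 26 values of 19 members kept their call and 49 lost it under at least 1. Against the untreated vector line the calls of SNORA29, SNORD53, SCARNA7, SNORA22 and SNORA70G were kept. Against the untreated NLRP4 line those of SNORA3A, SNORA16B, SNORD116-1, SCARNA7, SNORD53, SCARNA10, SNORA28, SNORD58A, SNORD45C, SNORD104 and SNORA22 were kept. With DOX, the calls of SNORA57, SNORD56B, SCARNA7 and SNORA22 against the vector line and of SNORD14C, SNORD116-1, SCARNA8, SNORA70G, SNORD95 and SNORD79 against the NLRP4 line were kept.

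**Figure D3:**
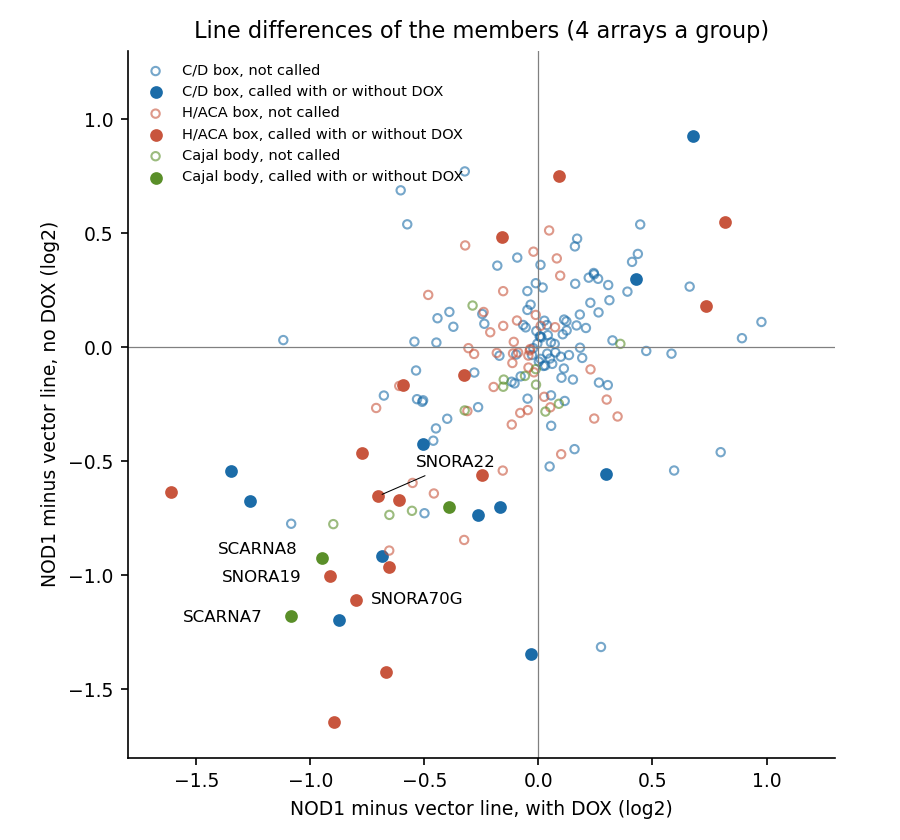
Log2 difference of the NOD1 minus the vector line with DOX (horizontal axis) and without DOX (vertical axis) for the 192 members, 4 arrays a group, coloured by class; filled points were called with or without DOX. The 5 named members, called in both, lie between -1.18 and -0.65 on both axes.

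Among the Cajal body RNAs, SCARNA7 and SCARNA8 carried the largest falls. SCARNA7 directs methylation of U1 small nuclear RNA and lies in an intron of KPNA4, an importin gene. It read 8.89, 10.37, 10.23 and 8.85 in the untreated NOD1 line, 10.88, 11.12, 10.73 and 10.93 in the untreated NLRP4 line and 10.47, 10.61, 11.14 and 10.83 in the untreated vector line. With DOX it read 9.62, 9.57, 10.51 and 9.92 in the NOD1 line, 10.71, 9.65, 11.25 and 11.01 in the NLRP4 line and 11.20, 11.09, 10.69 and 10.98 in the vector line. The NOD1-line arrays lay below all arrays of the other line in 3 of the 4 comparisons, but overlapped with the DOX-treated NLRP4 line through 1 NLRP4-line array. The log2 differences were -1.18 against the vector line without DOX (SE 0.317, limma adjusted p = 0.00714), -1.08 with DOX (adjusted p = 0.0123), -1.33 against the NLRP4 line without DOX (adjusted p = 0.00239) and -0.75 with DOX, which did not pass (adjusted p = 0.0897).

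SCARNA8, which directs pseudouridylation of U2 small nuclear RNA, lies in HAUS6, a gene of the augmin complex that seeds spindle microtubules. It read 8.78, 8.96, 7.78 and 8.93 in the DOX-treated NOD1 line, against 10.41, 10.27, 10.20 and 10.25 in the DOX-treated NLRP4 line and 9.45, 9.67, 10.26 and 8.87 in the DOX-treated vector line. Without DOX the values were 9.66, 9.13, 8.67 and 10.00 in the NOD1 line, 10.26, 9.57, 9.56 and 10.27 in the NLRP4 line and 10.61, 10.67, 10.07 and 9.81 in the vector line. The DOX-treated NOD1 and NLRP4 lines were far apart, with a 3.18-fold lower signal (log2 -1.67, SE 0.297, limma adjusted p = 0.00015), and the other groups overlapped. The falls against the vector line were -0.93 without DOX (adjusted p = 0.0231) and -0.95 with DOX (adjusted p = 0.0194). The call without DOX was lost on leaving out replicate 1 or 2 of the vector or replicate 2 or 3 of the NOD1 line (-0.85 to -0.69, adjusted p 0.0667 to 0.0981), and that with DOX on leaving out replicate 3 of either line (-0.72 to -0.67, adjusted p 0.0969 to 0.103).

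SCARNA5, a guide for U5 small nuclear RNA, fell by 0.70 and 0.77 without DOX against the vector and the NLRP4 line (limma adjusted p = 0.023 and 0.0117). The call against the vector line was lost without replicate 1 of the vector or replicate 3 or 4 of the NOD1 line (-0.65 to -0.51, adjusted p 0.0612 to 0.103), and that against the NLRP4 line without replicate 3 of the NOD1 line (-0.57, adjusted p = 0.0585). SCARNA10, a guide for U5 too, read 7.07, 7.05, 7.12 and 6.94 in the untreated NOD1 line, against 7.90, 8.54, 8.23 and 7.71 in the untreated NLRP4 line (log2 -1.05, SE 0.293, limma adjusted p = 0.0084). Those groups did not overlap, but the lower one lay among the dimmest 25% of genes. SCARNA9 was not called in any comparison, and its 6 group means spanned 0.112.

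SNORA70G was the single H/ACA RNA, and the single member, called in all 4 comparisons. It is 1 of 6 measured copies of SNORA70, a guide for ribosomal RNA, and their signals may be mixed. It read 9.29, 9.35, 9.74 and 8.63 in the DOX-treated NOD1 line, against 10.77, 10.24, 10.41 and 10.23 in the DOX-treated NLRP4 line and 9.68, 9.89, 10.22 and 10.41 in the DOX-treated vector line. Without DOX it read 8.29, 8.73, 10.33 and 9.07 in the NOD1 line, 10.25, 9.71, 10.39 and 10.24 in the NLRP4 line and 10.26, 10.15, 10.08 and 10.35 in the vector line. Replicate 3 of the untreated NOD1 line was as high as the other lines, and the NOD1 and NLRP4 lines did not overlap with DOX. The falls were 1.11 against the vector line without DOX (SE 0.288, limma adjusted p = 0.00546), 0.80 with DOX (adjusted p = 0.0436), 1.05 against the NLRP4 line without DOX (adjusted p = 0.00778) and 1.16 with DOX (adjusted p = 0.00383). Against the DOX-treated vector line, leaving out replicate 2, 3 or 4 of the vector or replicate 1, 2 or 4 of the NOD1 line ended the call (-0.85 to -0.59, adjusted p 0.0573 to 0.175).

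SNORA22, a guide for 28S ribosomal RNA, changed by less but with little spread. It read 8.83, 8.94, 8.80 and 8.71 in the untreated NOD1 line, against 9.78, 9.56, 9.67 and 9.18 in the untreated NLRP4 line and 9.16, 9.47, 9.44 and 9.82 in the untreated vector line. The NOD1-line arrays lay below all 8 of the others, with differences of -0.73 (SE 0.171, limma adjusted p = 0.00207) and -0.65 (adjusted p = 0.00572). With DOX it read 8.90, 9.18, 8.76 and 8.69 in the NOD1 line, against 9.63, 9.85, 9.86 and 8.99 in the vector line (log2 -0.70, limma adjusted p = 0.00298), where 1 vector array lay inside the NOD1 range.

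SNORA16B, an H/ACA RNA with a close copy in SNORA16A, showed the largest fall among members called without DOX. It read 8.46, 6.46, 8.75 and 6.34 in the untreated NOD1 line, against 9.43, 9.09, 9.24 and 9.74 in the untreated NLRP4 line and 8.96, 9.63, 8.48 and 9.50 in the untreated vector line. The differences were -1.87 against the NLRP4 line (SE 0.449, limma adjusted p = 0.00248), without overlap, and -1.64 against the vector line (adjusted p = 0.00791), with overlap. Without the 4 dimmest arrays the call against the vector line was lost (-1.13, adjusted p = 0.142). In the NOD1 line, 2 arrays were low and 2 were near the vector arrays. SNORA29 and SNORA20 lie in TCP1, a chaperonin gene. SNORA29 read 8.95, 8.31, 7.32 and 9.35 in the untreated NOD1 line, against 10.16, 9.73, 9.89 and 9.83 in the untreated vector line (log2 -1.42, SE 0.385, limma adjusted p = 0.00742), without overlap. SNORA20 fell by 1.61 against the vector line with DOX (SE 0.581, limma adjusted p = 0.0428), with overlap, and the call was lost without replicate 2, 3 or 4 of the vector or replicate 1, 3 or 4 of the NOD1 line (-1.67 to -1.32, adjusted p 0.065 to 0.143).

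Few H/ACA RNAs were higher in the NOD1 line, among them the copies of SNORA3 in introns of RPL27A, a ribosomal protein gene. SNORA3A read 9.89, 11.03, 10.36 and 10.21 in the untreated NOD1 line, against 9.27, 9.04, 9.06 and 9.13 in the untreated NLRP4 line, a 2.37-fold rise without overlap (log2 1.25, SE 0.267, limma adjusted p = 0.000904). Against the untreated vector line, at 10.11, 10.10, 9.21 and 9.06, the rise was 0.75 (adjusted p = 0.0409), and it was lost on leaving out replicate 3 or 4 of the vector or replicate 2, 3 or 4 of the NOD1 line (0.53 to 0.81, adjusted p 0.052 to 0.185). SNORA3B read 12.38, 11.87, 12.49 and 13.01 in the DOX-treated NOD1 line, against 11.94, 11.17, 11.43 and 11.94 in the DOX-treated vector line (log2 0.82, SE 0.228, limma adjusted p = 0.0087), with overlap, and the call was lost without the 4 dimmest arrays (0.62, adjusted p = 0.0526). SNORA57 read 10.86, 11.14, 11.18 and 10.97 in the DOX-treated NOD1 line, against 10.37, 10.22, 10.40 and 10.22 in the DOX-treated vector line (log2 0.73, SE 0.212, limma adjusted p = 0.0113), without overlap. SNORA55, in an intron of PABPC4, rose by 0.48 and 0.52 without DOX against the vector and the NLRP4 line (limma adjusted p = 0.0206 and 0.012). Those calls were lost without replicate 2 of the vector or replicate 1 or 2 of the NOD1 line (0.36 to 0.46, adjusted p 0.0538 to 0.0969), and without replicate 1 of the NLRP4 or of the NOD1 line (0.40 to 0.45, adjusted p 0.0505 to 0.0615).

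**Figure D4:**
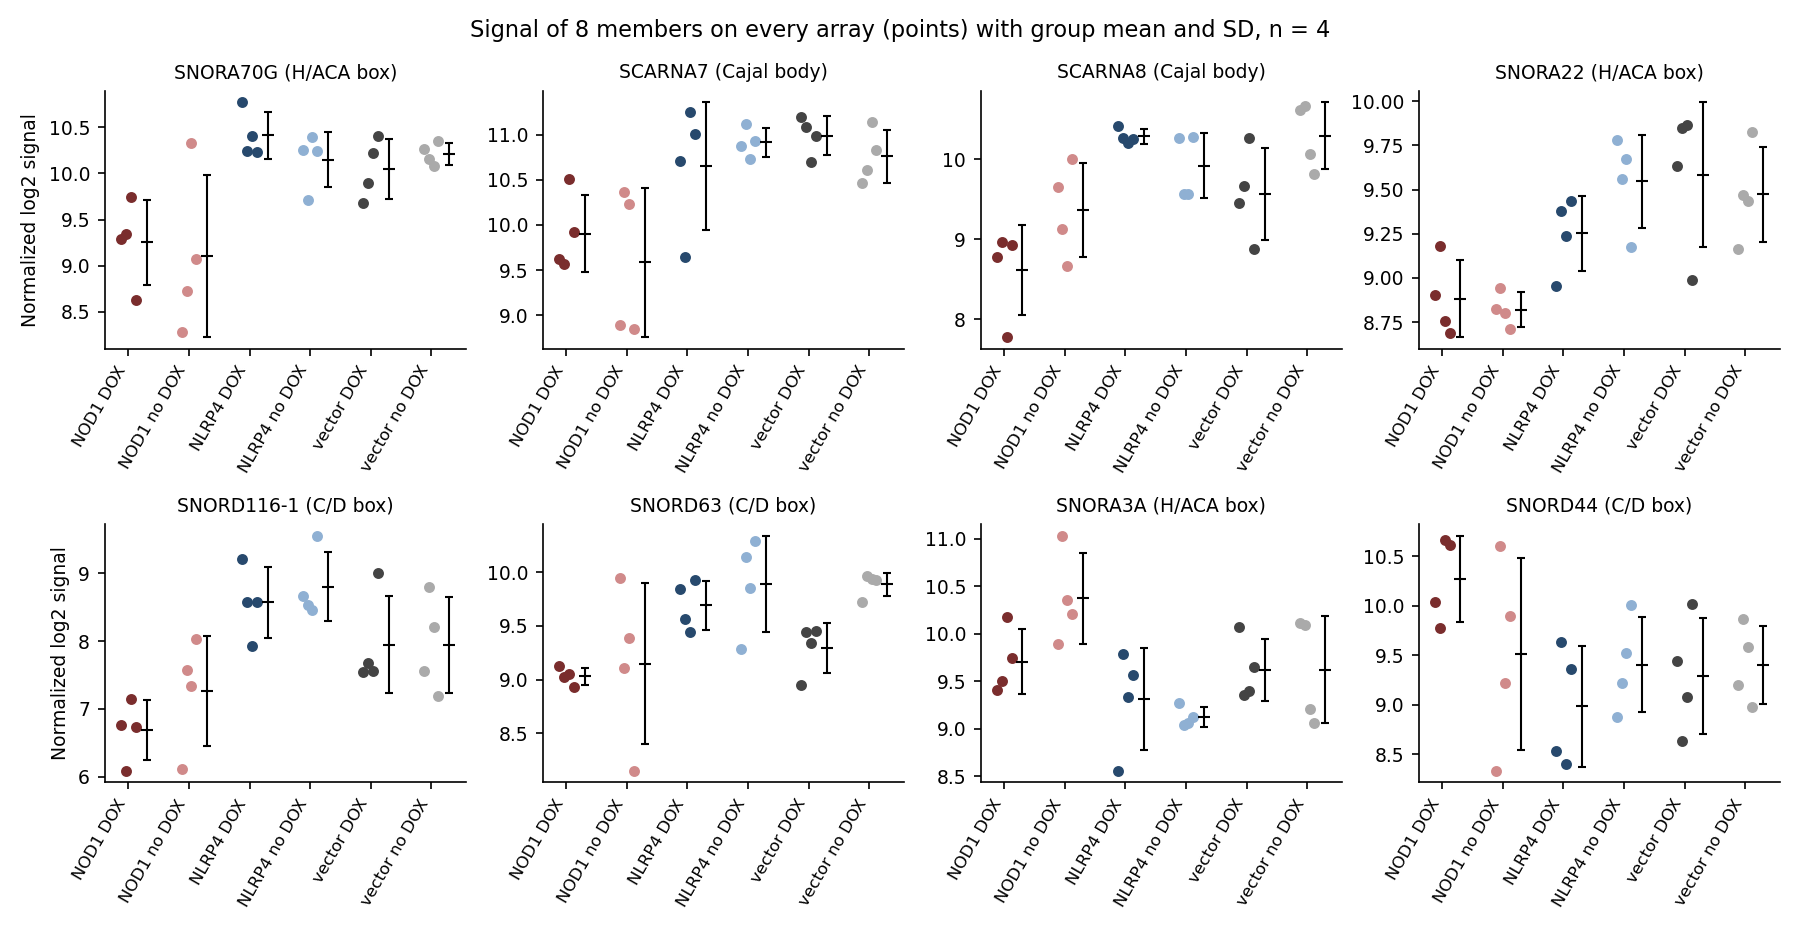
Normalized log2 signal of 8 members on every array (points), with group mean and SD beside them (n = 4), in the DOX-treated and untreated NOD1, NLRP4 and vector lines; each panel has its own vertical axis. SNORA70G, SCARNA7, SCARNA8, SNORA22, SNORD116-1 and SNORD63 were called as lower in the NOD1 line in at least 3 comparisons, and SNORA3A and SNORD44 as higher in 2 and 1.

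Among the C/D box RNAs, SNORD116-1 showed the largest single difference. It read 6.76, 6.09, 7.15 and 6.73 in the DOX-treated NOD1 line, against 9.21, 8.57, 7.93 and 8.58 in the DOX-treated NLRP4 line and 7.54, 7.68, 7.55 and 9.01 in the DOX-treated vector line. Without DOX it read 6.12, 7.57, 7.34 and 8.03 in the NOD1 line, 8.66, 8.53, 8.46 and 9.55 in the NLRP4 line and 7.56, 8.79, 8.21 and 7.19 in the vector line. The NOD1 line lay below the NLRP4 line without overlap in both treatments, 3.71-fold with DOX (log2 -1.89, SE 0.396, limma adjusted p = 0.000816) and by 1.54 on the log2 scale without DOX (adjusted p = 0.00457). Against the vector line the fall was 1.26 with DOX (adjusted p = 0.0194), and it was lost on leaving out replicate 4 of the vector or replicate 2 of the NOD1 line (-1.06 to -0.91, adjusted p 0.0747 to 0.103). Without DOX the difference from the vector line was -0.67 (adjusted p = 0.245). The 39 snoRNAs of the Prader-Willi transcript SNHG14, to which SNORD116-1 belongs, had medians of 0.01 and 0.05 against the vector line (no DOX, then DOX) and -0.08 and -0.04 against the NLRP4 line, with 0, 1, 2 and 2 called. Of these 39, 20 are the SNORD115 copies, all among the dimmest 25% of genes. Probe sets shared by several SNORD116 copies, which are not among the members, were called as lower too. In a limma fit over all probe sets, one for SNORD116-3, SNORD116-5, SNORD116-7, SNORD116-8 and SNORD116-9 fell by 0.66 and 1.02 against the vector line (no DOX, then DOX; adjusted p = 0.0447 and 0.00243) and by 1.40 and 1.36 against the NLRP4 line (adjusted p = 0.000127 and 0.00018). A probe set for SNORD64 and PWAR5, of the same region, fell by 0.82 and 0.78 against the vector line (adjusted p = 0.0386 and 0.0466) and by 0.94 and 1.05 against the NLRP4 line (adjusted p = 0.0176 and 0.00868).

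SNORD53 and SNORD58A were called without DOX and not with DOX. SNORD53, from an intron of WDR43, read 8.55, 9.06, 8.38 and 8.66 in the untreated NOD1 line, against 10.33, 9.55, 9.51 and 10.19 in the untreated NLRP4 line and 10.53, 10.27, 10.15 and 9.07 in the untreated vector line. The falls were 1.23 (SE 0.324, limma adjusted p = 0.00529) and 1.34 (adjusted p = 0.00294), without overlap in either. With DOX the differences were 0.10 and -0.03 (adjusted p = 0.871 and 0.961), and no difference between the DOX effects of the lines was called for it. SNORD58A, whose values are given above, was 0.89 lower in the untreated NOD1 than in the untreated NLRP4 line (SE 0.149, limma adjusted p = 6.34e-05), without overlap, and was not called against the vector line.

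SNORD104, a guide for 28S ribosomal RNA, read 7.75, 8.63, 8.38 and 8.69 in the untreated NOD1 line, against 9.17, 9.0, 9.18 and 9.11 in the untreated NLRP4 line and 8.78, 8.79, 9.04 and 9.07 in the untreated vector line. It lay below both lines without overlap, by 0.75 (SE 0.192, limma adjusted p = 0.0043) and by 0.56 (adjusted p = 0.0355). The call against the vector line was lost without replicate 3 or 4 of the vector or replicate 1 or 3 of the NOD1 line (-0.56 to -0.35, adjusted p 0.0545 to 0.176), and under 5 other settings, all 3 other scalings, only the arrays compared and array weights (-0.60 to -0.44, adjusted p 0.0508 to 0.116). SNORD45C, from RABGGTB, read 8.53, 8.60, 9.16 and 8.51 in the untreated NOD1 line, against 9.78, 9.65, 9.39 and 9.51 in the untreated NLRP4 line (log2 -0.88, SE 0.205, limma adjusted p = 0.00189), without overlap. SNORD63, from HSPA9, a mitochondrial chaperone gene, read 9.95, 9.11, 9.39 and 8.16 in the untreated NOD1 line, against 9.28, 10.14, 9.85 and 10.29 in the untreated NLRP4 line and 9.72, 9.96, 9.94 and 9.92 in the untreated vector line. The NOD1-line arrays were spread widely and overlapped both. With DOX it read 9.13, 9.03, 9.05 and 8.93 in the NOD1 line, against 9.84, 9.56, 9.45 and 9.93 in the NLRP4 line, without overlap. SNORD63 fell by 0.74 against either line without DOX (limma adjusted p = 0.0279 and 0.0248 against vector and NLRP4) and by 0.66 against the NLRP4 line with DOX (adjusted p = 0.0492). Against the vector line the call was lost without replicate 2, 3 or 4 of the vector or replicate 2 or 4 of the NOD1 line (-0.72 to -0.40, adjusted p 0.0592 to 0.155), and against the NLRP4 line without replicate 2 or 4 of either line (-0.73 to -0.41, adjusted p 0.0546 to 0.142). With DOX it was lost without any of the 4 NOD1-line arrays or replicate 1, 2 or 4 of the NLRP4 line (-0.71 to -0.58, adjusted p 0.062 to 0.131).

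The comparison with the DOX-treated NLRP4 line called most of the C/D box RNAs that were higher. SNORD44, a methylation guide for 18S ribosomal RNA that is often used as a reference RNA, read 10.04, 9.77, 10.66 and 10.61 in the DOX-treated NOD1 line, against 8.53, 9.64, 8.40 and 9.36 in the DOX-treated NLRP4 line (log2 1.29, SE 0.382, limma adjusted p = 0.0142). The groups did not overlap, but the call was lost without replicate 3 of the NLRP4 line (1.10, adjusted p = 0.0591) and with the array median as a covariate (0.83, adjusted p = 0.151). SNORD44 had a slope of -1.60 per unit of array median (SE 0.648, limma adjusted p = 0.209). SNORD44 is 1 of 7 measured snoRNAs of GAS5, a noncoding host gene. All 7 were above 0 in that comparison, with a median of 0.53 and a range of 0.10 to 1.29, and 3 were called (SNORD44, SNORD78 at 0.53 and SNORD79 at 0.64). The call of SNORD78 was lost without replicate 1 or 4 of the NLRP4 line or replicate 2, 3 or 4 of the NOD1 line (0.44 to 0.52, adjusted p 0.0636 to 0.113). The median was 0.51 in the values as deposited, 0.80 with centred arrays and 0.56 after quantile normalization of all probe sets. In the other comparisons of the NOD1 line the median of the 7 was 0.11, 0.11 and 0.06, with 0, 0 and 1 called.

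SNORD14C, a U14 gene within HSPA8 whose RNA is needed for processing of 18S ribosomal RNA, read 11.57, 11.59, 11.44 and 11.88 in the DOX-treated NOD1 line, against 11.08, 10.62, 10.84 and 11.06 in the DOX-treated NLRP4 line (log2 0.72, SE 0.164, limma adjusted p = 0.00183), without overlap. SNORD95, a guide for 28S ribosomal RNA, read 9.07, 9.29, 9.44 and 9.43 in the DOX-treated NOD1 line, against 10.33, 10.41, 10.26 and 9.94 in the DOX-treated NLRP4 line (log2 -0.93, SE 0.224, limma adjusted p = 0.00301), without overlap. SNORD14C and SNORD95 were called in no other comparison, and both were among the members lowest in p for DOX in the NLRP4 line. Their DOX effects in the NLRP4 minus the vector line were -0.83 and 0.40 (SE 0.232 and 0.317, limma adjusted p = 0.912 and 0.95). SNORD13, the U13 RNA that guides acetylation of 18S ribosomal RNA by NAT10, read 11.85, 12.68, 11.59 and 12.19 in the DOX-treated NOD1 line, against 13.06, 13.04, 12.60 and 12.79 in the DOX-treated NLRP4 line (log2 -0.80, SE 0.248, limma adjusted p = 0.0193), with overlap. Its pseudogene copies SNORD13P2 and SNORD13P3 fell by 0.99 and 0.68 in the same comparison (limma adjusted p = 0.0469 and 0.0376), and the 3 signals may be mixed. With arrays centred on their medians none of the 3 was called (SNORD13 at -0.42, adjusted p = 0.345), and each was lost on leaving out some single arrays. For SNORD13 these were replicate 1 or 2 of the NLRP4 line and replicate 1 or 3 of the NOD1 line (-0.74 to -0.64, adjusted p 0.053 to 0.082). For SNORD13P2 they were replicate 1, 2 or 4 of the NLRP4 line and 2, 3 or 4 of the NOD1 line (-1.09 to -0.85, adjusted p 0.0521 to 0.128), and for SNORD13P3 replicate 1, 2 or 4 of the NLRP4 line and 1, 3 or 4 of the NOD1 line (-0.71 to -0.58, adjusted p 0.0567 to 0.114).

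Settings other than leaving out 1 array ended further calls of the members described above. Without the 4 dimmest arrays these included, against the untreated vector line, SNORD45C (-0.57, adjusted p = 0.114) and, with array weights also, SCARNA8 (-0.72 to -0.71, adjusted p 0.13 to 0.183). SNORD63 was lost against that line under 3 settings, this one among them (-0.74 to -0.68, limma adjusted p 0.0734 to 0.111). SNORA20 lost its call against the DOX-treated vector line under 2 (-1.61 to -1.59, limma adjusted p 0.0551 to 0.0725). SNORA70G lost its call against the DOX-treated vector line under 5 such settings, among them centred arrays and the array median as a covariate (-0.80 to -0.58, adjusted p 0.053 to 0.196), and against the untreated NLRP4 line under 2 (-1.07 to -0.87, adjusted p 0.054 to 0.0686). SCARNA8 lost its call against the DOX-treated vector line with centred arrays (-0.84, adjusted p = 0.0568). SCARNA5 lost its call against the untreated vector line as deposited and with centred arrays (-0.61 to -0.57, adjusted p 0.0637 to 0.0894). SNORA3A against the untreated vector line was lost under 3 settings (0.67 to 0.80, adjusted p 0.051 to 0.113), as was SNORA55 (0.34 to 0.48, adjusted p 0.0689 to 0.187). SNORD63 was lost against the DOX-treated NLRP4 line under 6 (-0.66 to -0.46, adjusted p 0.0521 to 0.209), and SNORD78 under 3 (0.47 to 0.51, adjusted p 0.0549 to 0.116). Against the untreated NLRP4 line SNORD63 was lost under 2 (-0.76 to -0.66, limma adjusted p 0.0745 to 0.143). There SNORA55 was lost without the 4 dimmest arrays (0.42, limma adjusted p = 0.0886) and SCARNA5 with only the arrays compared (-0.78, limma adjusted p = 0.0709).

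For 99 members, a longer gene that holds the member was measured too, 77 such genes in all. Of the holding genes 35.1% and 37.7% were called against the vector line (no DOX, then DOX), beside 24.9% and 25.8% of all genes and 31.3% and 32.2% of genes above the dimmest 25%. Against the NLRP4 line 35.1% and 33.8% were called, beside 27% and 25.4% of all genes and 33.6% and 31.5% of those above that limit, and more were higher than lower (17 and 10, 19 and 10, 18 and 9, 16 and 10). Of the 99 members 16, 11, 15 and 10 were called. Member and holding gene were both called in the same direction in 4, 2, 1 and 2 pairs and in opposite directions in 3, 2, 2 and 2, and they had the same sign in 51, 44, 48 and 52 pairs. The Pearson correlation across pairs, which share arrays and in part the holding gene, was 0.30, 0.23, 0.14 and 0.10.

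SCARNA8 and SNORA19 fell with their holding genes against the vector line. Against the untreated vector line SCARNA7 fell with KPNA4 (-0.26, limma adjusted p = 0.0219) and SNORA55 rose with PABPC4 (0.65), while 3 pairs were called in opposite directions. KPNA4 was not called against the DOX-treated vector line (0.02). SNORA55 rose with PABPC4 (0.70) against the untreated NLRP4 line, and SNORD14C with HSPA8 (0.18) against the DOX-treated NLRP4 line. In each of those comparisons 2 pairs went opposite ways. HAUS6 fell by 0.96 and 0.97 against the vector line without and with DOX (limma adjusted p = 3.46e-06 and 2.61e-06) and by 0.87 and 0.75 against the NLRP4 line, where SCARNA8 was called with DOX only. SNORA19, an H/ACA RNA of EIF3A, a translation initiation factor gene, read 8.51, 7.19, 8.56 and 7.43 in the untreated NOD1 line, against 8.95, 8.81, 9.0 and 8.93 in the untreated vector line (log2 -1.0, SE 0.331, limma adjusted p = 0.0276), without overlap, where EIF3A fell by 0.73. That call was lost without replicate 3 or 4 of the vector or replicate 2 or 4 of the NOD1 line (-1.0 to -0.75, adjusted p 0.0552 to 0.129), and the call with DOX, at -0.91 (adjusted p = 0.0449), was lost without any of the 4 vector arrays or replicate 1, 2 or 4 of the NOD1 line (-0.97 to -0.71, adjusted p 0.059 to 0.154). The call without DOX was also lost as deposited and without the 4 dimmest arrays (-0.93 to -0.79, limma adjusted p 0.0841 to 0.136). The call with DOX ended under 7 other settings, all 3 other scalings among them (-1.04 to -0.75, limma adjusted p 0.0516 to 0.104). Against the NLRP4 line EIF3A fell by 0.74 without and 0.81 with DOX, and SNORA19 was not called in either. SNORA70G went the other way from RAP1B, a small GTPase gene that rose by 0.27, 0.22, 0.26 and 0.30 against the vector line (no DOX, DOX) and the NLRP4 line (no DOX, DOX). TCP1, WDR43 and RPL27A were not called where their guides SNORA29, SNORD53 and SNORA3A were.

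**Figure D5:**
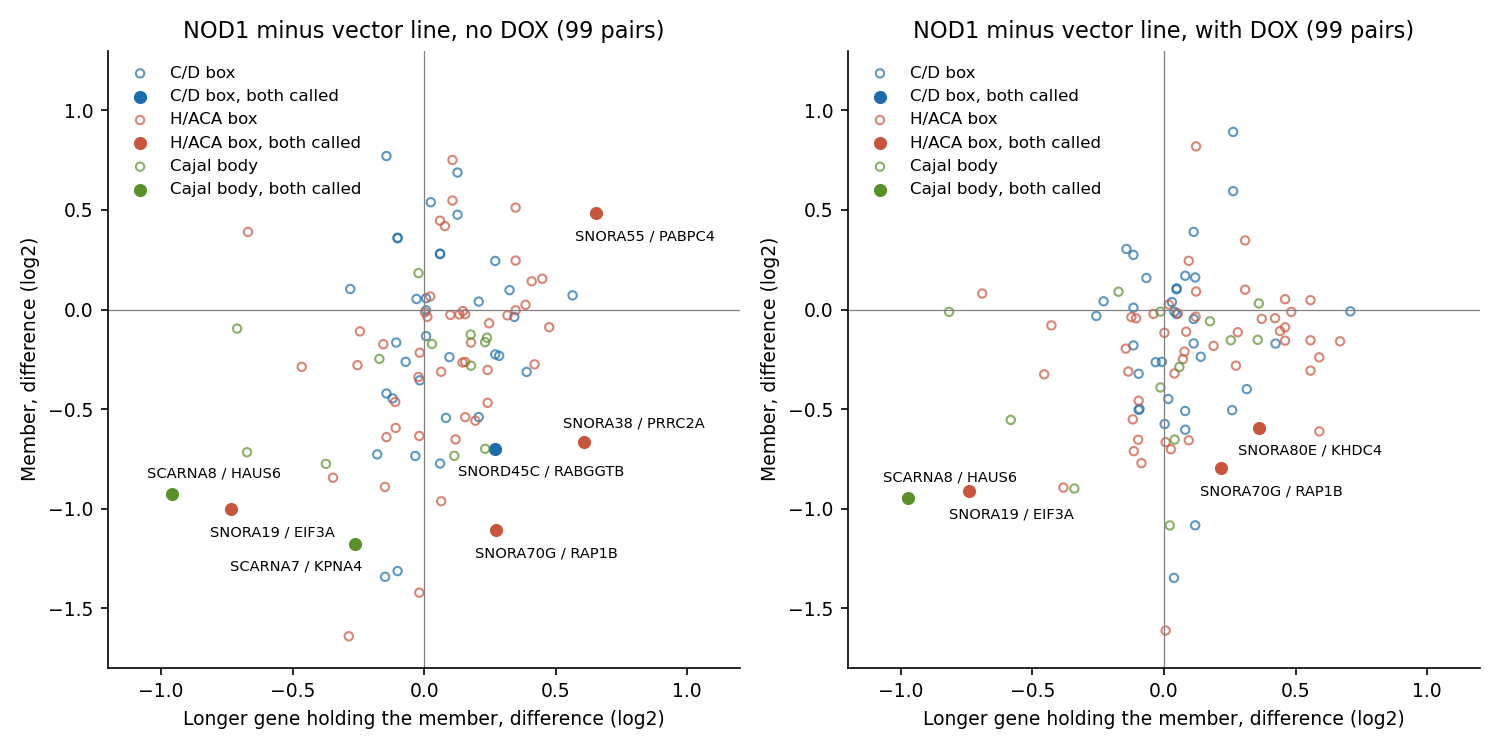
Log2 difference of a member (vertical axis) against that of the longer gene that holds it (horizontal axis) for 99 pairs in the NOD1 minus the vector line, without DOX on the left and with DOX on the right; filled points have both called. SCARNA8 with HAUS6 and SNORA19 with EIF3A lie at the lower left, and SNORA70G with RAP1B lies at the lower right.

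Many snoRNA hosts are known to start transcription at a C within a run of pyrimidines, the mark of genes for the translation machinery. Of 87 longer genes that hold a member and have a RefSeq promoter, 26 (29.9%) began with C followed by 4 bases that were each C or T, read on the gene's strand from its annotated start, beside 1104 of 27305 promoters (4.04%). The starts of 4 holding genes of called guides are shown, HAUS6 (fell with SCARNA8), RPL27A (not called where SNORA3A rose), RABGGTB (rose by 0.27 against the untreated vector line, where SNORD45C fell by 0.70) and RAP1B (rose where SNORA70G fell), as 40 bases before and 20 from the start (RefSeq, GRCh38.p14). Capitals mark the unbroken run of C and T at the start. HAUS6 lies at chr9:19102885-19102944 on the minus strand, RPL27A at chr11:8682752-8682811, RABGGTB at chr1:75786216-75786275 and RAP1B at chr12:68610859-68610918 on the plus strand.
HAUS6: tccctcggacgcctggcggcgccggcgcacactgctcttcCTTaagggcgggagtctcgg
RPL27A: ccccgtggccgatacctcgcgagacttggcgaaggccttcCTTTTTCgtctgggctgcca
RABGGTB: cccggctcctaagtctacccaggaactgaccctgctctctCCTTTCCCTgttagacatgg
RAP1B: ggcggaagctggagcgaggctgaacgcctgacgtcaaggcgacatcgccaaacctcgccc
The run held 3, 7, 9 and 0 bases in that order. RPL27A and RABGGTB, with the longer runs, hold SNORA3A, which was higher, and SNORD45C, which was lower in the untreated NOD1 line.

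The proteins that bind the guides were called in both directions in the NOD1 line. Of the C/D box core proteins NOP58 fell by 0.59 and 0.53 against the vector line (no DOX, then DOX) and by 0.62 and 0.56 against the NLRP4 line (limma adjusted p 1.75e-05 to 0.00012), except that with arrays centred on their medians it was not called as lower with DOX. The other measured member of that list was not called. Of the 4 H/ACA core proteins none fell, and 3, 2, 2 and 3 rose (against vector without and NLRP4 without DOX, then vector and NLRP4 with DOX). Over all genes 24.9%, 27%, 25.8% and 25.4% were called in either direction. DKC1, the pseudouridine synthase, rose by 0.33, 0.32, 0.42 and 0.46 in that order, while centred arrays left 0 of the 4 called without DOX.

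Of 25 measured assembly and processing factors 5, 5, 5 and 6 rose and 5, 6, 8 and 7 fell in the same order of comparisons. For these and the lists below, the share of all genes called in either direction was 24.9%, 27%, 25.8% and 25.4%. Among genes above the dimmest 25% it was 31.3%, 33.6%, 32.2% and 31.5%. RUVBL2, an ATPase that loads snoRNP core proteins, rose by 0.69 against the untreated vector line (limma adjusted p = 6.9e-05), and PHAX, an export adaptor for capped small RNAs, fell by 0.73 against the DOX-treated vector line (adjusted p = 0.000653). Of 12 Cajal body proteins 2 rose in each comparison, SART3 (0.70 against the untreated vector line) and LSM10 (0.62), and 3, 3, 2 and 2 fell, among them ICE1 (-0.87) and ICE2 (-0.52), which act in transcription of small nuclear RNA genes. Of 24 proteins of the U3 processome 6, 6, 6 and 8 rose and 6, 6, 5 and 4 fell, with UTP4 at 0.86 and MPHOSPH10 at -0.72 against the untreated vector line. Of 35 measured spliced host genes on the list 7 rose in each comparison and 4, 4, 3 and 5 fell, and TAF1D, host of several snoRNAs, fell by 0.42 against the untreated vector line (adjusted p = 0.000347). Of 19 other small nuclear and cytoplasmic RNAs 0, 0, 1 and 1 rose and 2, 1, 2 and 5 fell. RNU5B-1, a U5 spliceosomal RNA, fell by 1.14 against the untreated vector and by 1.44 against the untreated NLRP4 line (limma adjusted p = 0.000122 against vector). The median difference of these 19 RNAs was -0.04, -0.08, -0.07 and -0.08 in the same order. These splits depend on the scaling. Against the DOX-treated NLRP4 line, centred arrays gave 9 higher and 2 lower among the assembly and processing factors, 11 and 0 among the U3 processome proteins, 12 and 0 among the host genes, 2 and 0 among the Cajal body proteins and 0 and 4 among the other small RNAs, and in the values as deposited the host genes stood at 7 and 1. Against the DOX-treated vector line centring gave 5 higher and 3 lower assembly factors and 7 and 0 host genes. Against the untreated NLRP4 line it gave 2 and 5 assembly factors, and against the untreated vector line 4 and 1 host genes.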

How the data were processed

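Total RNA of 24 wells was measured on Affymetrix Human Gene ST arrays. Each array has a deposited log2 signal for every probe set, which the authors made with RMA and the oligo package per the submitters' processing notes, without versions or order. GEO's platform annotation gave the gene names, and symbols, lengths and holding genes came from RefSeq GRCh38.p14, in which all 192 members matched; its table gives no strand, so a longer gene may lie on the other strand. The brightest probe set stood for each of 18417 genes. The deposited log2 values were quantile normalized between arrays and fitted as 6 group means with limma 3.58.1 in R 4.3.3 (18 residual degrees of freedom), for 12 comparisons, and a gene was called where p, adjusted after Benjamini-Hochberg over all genes, was under 0.05. No dim gene was filtered out. The number of arrays limits the precision. Members named were called members without overlap (up to 8 rises and 8 falls a comparison), members lowest in p where few were called, extremes of level, and guides of known role; SNORA3B, SNORA20, SNORD78, SNORD13P3, SCARNA16 and others called with overlap were chosen after their values were seen. The members and lists were chosen with earlier results of these data known. The fit was tested on simulated data with independent noise and a small set of genes shifted in a single group. These data held no differences in array brightness, so the test does not bear on the choice of scaling. Alternatives covered scaling, brightness, weights, the prior, probe sets, dim genes and single arrays.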

Additional observations from a re-analysis of the deposited data

Results flagged for a closer look

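Dixon's criterion was applied to 138 groups of 4 arrays (20 members and the class medians), and chance flags about 1 in 20 groups; 7 were flagged. SCARNA5 read 9.02 on replicate 3 of the untreated NLRP4 line, below the other 3 at 10.02 to 10.17. SCARNA8 read 7.78 on replicate 3 of the DOX-treated NOD1 line, below the others at 8.78 to 8.96. SNORD45C read 9.16 on replicate 3 of the untreated NOD1 line, above the others at 8.51 to 8.60. Among vector arrays, SNORD116-1 read 9.01 on replicate 4 with DOX (others 7.54 to 7.68), SNORD13 read 11.89 on replicate 3 with DOX (others 12.60 to 12.68), SNORD58A read 10.78 on replicate 2 with DOX (others 10.26 to 10.34) and SNORD63 read 9.72 on replicate 1 without DOX (others 9.92 to 9.96).

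The 76 probe sets that carry a member's symbol beside another gene's are outside the comparisons above, and some differed in the NOD1 line. In a limma fit over all 33297 probe sets, 15 of them were called against the untreated vector line (8 higher, 7 lower; 19.7%, beside 21.3% of all probe sets) and 13 against the untreated NLRP4 line (5 higher, 8 lower; 17.1%, beside 22.4%). With DOX, 17 were called against the vector line (8 higher, 9 lower; 22.4%, beside 23%) and 17 against the NLRP4 line (7 higher, 10 lower; 22.4%, beside 22.8%). Against the untreated vector line, the probe set of SNHG1 and SNORD22 rose by 1.38 (limma adjusted p = 0.00101), that of GAS5 and SNORD47 rose by 0.45 (adjusted p = 0.00195) and that of SNORA40 and TAF1D fell by 1.09 (adjusted p = 0.00195). Which of the named genes such a probe set read cannot be told apart.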

How the results depend on the processing

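No paired analysis was possible because the replicate numbers only name arrays in accession order and pair none across groups. Counts of called members moved by over 1.5 times in these cases. Against the untreated vector line 13 were called in the values as deposited, and against the untreated NLRP4 line 13 without the 4 dimmest arrays, where the reported counts are 20 each. Against the DOX-treated vector line (15) the count was 23 with only the arrays compared and 9 to 17 on leaving out 1 array, lowest without replicate 4 of the vector. Against the DOX-treated NLRP4 line (20) it was 47 as deposited, 32 with only the arrays compared and 12 to 20 on leaving out 1 array, with 12 without replicate 1 of the NLRP4 and 13 without replicate 1 of the NOD1 line; there the C/D box median was -0.27 and the H/ACA median -0.43 as deposited, and the H/ACA median -0.08 with the array median as a covariate. The counts of 0 for DOX became 2 with centred arrays in the NLRP4 line and 0 to 1 on leaving out 1 array in the NOD1 line. For the DOX effects of the NLRP4 minus the vector line and of the NOD1 minus the NLRP4 line, 1 member, SNORD58A, was called with centred arrays, after quantile normalization of all probe sets and with array weights, for the NLRP4 minus vector effect with only the arrays compared, and for the NOD1 minus NLRP4 effect without the 4 dimmest arrays and on leaving out 1 array (0 to 1). Reversals concerned values that were not called. SNORA3A against the DOX-treated vector line was -0.04 with the covariate and -0.07 to 0.24 on leaving out 1 array (below 0 without NOD1 replicate 3). SNORD53 against the DOX-treated vector line was 0.14 centred, 0.05 after normalizing all probe sets and -0.38 to 0.27 on leaving out 1 array (above 0 without vector replicate 4 or NOD1 replicate 1 or 2), and against the DOX-treated NLRP4 line it was -0.17 with the covariate, -0.24 without the 4 dimmest arrays and -0.25 to 0.40 on leaving out 1 array (below 0 without NOD1 replicate 4). SNORA15 against the untreated NLRP4 line was -0.34 to 0.02 (above 0 without NOD1 replicate 4). Of 2655 values of single members under alternatives, 2310 kept their side of the threshold and direction, 306 lost their call, 28 gained one and 11 reversed. The causes were not tested. The median SE of a member's line difference, 0.217, limits what could be detected.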

Other observations

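Of the 192 members 5 had more than 1 probe set of their own, and for SCARNA9L they gave different calls. Its second probe set, with a mean level of 9.45, was called as lower in the untreated NOD1 against the untreated NLRP4 line (log2 -0.48, SE 0.173, limma adjusted p = 0.0436) and in the DOX-treated lines (log2 -0.47, adjusted p = 0.049). The probe set used above, with a mean level of 12.34, had larger differences with a larger SE that did not pass (log2 -0.78 and -1.04, SE 0.429, adjusted p = 0.202 and 0.0798). For SNORA15, the probe sets gave like values, at -0.77 and -0.80 in the DOX-treated NOD1 against the DOX-treated vector line (adjusted p = 0.0182 and 0.0202).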
